A study of Mus musculus with 9 samples.

Results

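Plasmacytoid dendritic cells (pDCs) given oxidized mitochondrial DNA were compared with pDCs given unoxidized mitochondrial DNA, to ask what oxidation of the DNA adds. The comparison covered all genes of 6 of the 9 libraries of the series: 3 of mouse pDCs treated with oxidized mitochondrial DNA (Ox-mtDNA) and 3 of mouse pDCs treated with mitochondrial DNA (mtDNA). The other 3 libraries, of pDCs treated with phosphate-buffered saline (PBS), entered the fit and serve as the background level. All cells were sorted by flow cytometry, all libraries were made from polyadenylated RNA, and replicates are numbered 1 to 3 in each group. Strain, age, dose, time, the source of the DNA, how it was oxidized and how it was given to the cells are not given in the sources used here. Of 57126 genes in the deposited count table, 17555 passed the filter on low counts and were tested.

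pDCs are a rare dendritic cell type known for rapid, abundant secretion of type I interferon after sensing nucleic acids. They take up DNA into endosomes, where Toll-like receptor 9 (Tlr9) binds it and signals through Irf7 to interferon genes. DNA in the cytosol is bound by cGAS, which signals through STING, and is degraded by the nuclease Trex1. Mitochondrial DNA can act as a ligand of these sensors, and oxidized guanine is known to make DNA more resistant to Trex1. Secreted interferon binds its receptor on the same and neighbouring cells and switches on interferon-stimulated genes, so these genes report interferon received as well as interferon made.

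Total counts were between 16029951 and 20734950 in the 6 libraries. The defining pDC marker Siglech was abundant in all of them, at 1766, 2192 and 1851 CPM after mtDNA and 1796, 1194 and 2015 CPM after Ox-mtDNA in replicates 1, 2 and 3 (CPM is the count scaled to library size with TMM factors, not to gene length). Of these the lowest was Ox-mtDNA replicate 2. In bulk samples, fewer cells of a type and less RNA per cell cannot be told apart. Genes listed as markers of other cells were also counted. Summed over the tested markers of a list, B cell genes were between 3472 and 5022 CPM in the 6 libraries, monocyte and macrophage genes between 1055 and 1481 CPM, NK cell genes between 70.6 and 224 CPM, T cell genes between 60.6 and 102 CPM, and neutrophil genes between 11 and 47.5 CPM. Plasma cell genes were between 1762 and 3535 CPM. Genes of conventional dendritic cells were between 1118 and 1821 CPM for the cDC1 list and between 830 and 1220 CPM for the cDC2 list. The B cell list shares Spib with the list of pDC identity genes, the monocyte and macrophage list Ly6c2 and the plasma cell list Mzb1. The cDC1 and cDC2 lists share no member with it. These sums alone do not show that other cells were present. What part other cells had in the differences below was not tested. Replicate 3 stood apart in both groups: the first principal component of the 6 libraries, 77.0% of the variance, separated its libraries from the other 4. Xist was at 1928 and 2087 CPM in mtDNA and Ox-mtDNA replicate 3 and at most 0.846 CPM in the other 4. Over the 770 genes above 60% GC the median level was -0.41 and -0.33 log2 CPM there, against 2.87 to 3.13 in the other 4, so a GC-rich gene is often hardly measured in replicate 3. The second component, 10.8%, separated Ox-mtDNA replicate 1 from Ox-mtDNA replicate 2.

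No gene passed the threshold between Ox-mtDNA and mtDNA (0 of 17555, 0% called, edgeR quasi-likelihood test with the replicate number as a block, Benjamini-Hochberg adjusted p under 0.05). The smallest adjusted p, 0.405, belonged to Sdc3, and every other gene was at 0.729 or above (edgeR). Without the adjustment, 1195 genes (6.81%) had a p under 0.05, against 878 expected if no gene differed. Of these, 603 (3.43% of genes tested) were higher after Ox-mtDNA and 592 (3.37%) were lower. Whatever the p, 9393 of the 17555 genes had a positive fold change. The values below therefore describe these 6 libraries, and none is a call over all genes. Other tools or filters gave up to 90 called genes, as set out in the closing section.

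The 3 replicates gave different answers to the same question. Differences in log2 CPM (Ox-mtDNA minus mtDNA, libraries of the same number) correlated across genes at r = 0.184 between replicates 1 and 2, 0.128 between 1 and 3, and -0.016 between 2 and 3. These correlations are across 17555 genes, which are not independent replicates, and the replicates share no library. A difference of more than 2-fold was seen for 21.6% of genes in replicate 1, 25.2% in replicate 2 and 7.51% in replicate 3. In replicates 1 and 2 together, 570 genes were more than 2-fold higher in both and 474 more than 2-fold lower in both. In the same pair, 361 genes were more than 2-fold lower in replicate 1 and more than 2-fold higher in replicate 2, and 137 were the reverse. All 3 replicates were positive for 2653 genes (15.1%) and negative for 2231 genes (12.7%). The 3 Ox-mtDNA libraries were all above the 3 mtDNA libraries for 358 genes (2.04%) and all below them for 490 genes (2.79%).

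**Figure D1:**
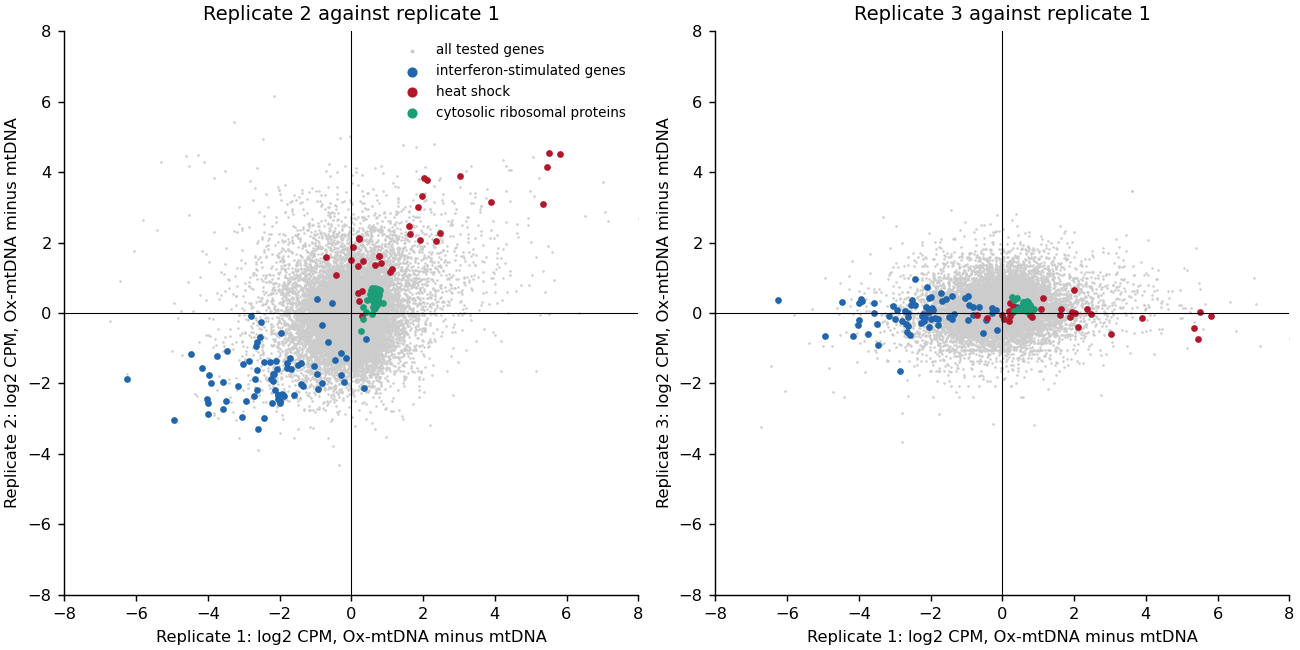
Each point is a gene, placed by its log2 CPM difference (Ox-mtDNA minus mtDNA) in replicate 1 on the horizontal axis and in replicate 2 (left) or replicate 3 (right) on the vertical axis, with 3 gene lists in colour over all 17555 tested genes in grey. Interferon-stimulated genes lie low and heat shock genes high in replicates 1 and 2 (medians -2.17 and -1.76, and 0.95 and 1.95), and both lie near 0 in replicate 3 (medians -0.01 and -0.01).

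Among genes lower after Ox-mtDNA in every replicate, Sdc3, which encodes the heparan sulfate proteoglycan syndecan 3 (chromosome 4, 130519848 to 130553630, GRCm39), had the smallest p. It was at 117, 248 and 0.163 CPM after mtDNA and 15.9, 42.5 and 0 CPM after Ox-mtDNA in replicates 1, 2 and 3, against 72.2, 187 and 0.228 CPM in PBS. Its log2 fold change was -2.7 (SE 0.31). Replicates 1 and 2 differed in the same direction, while replicate 3 held 3 counts in the mtDNA library and 0 in the Ox-mtDNA library, at or under the floor of 3 counts, so it adds nothing to the direction. Its GC content is 58.7%, above that of most genes. Slc25a22, a mitochondrial glutamate carrier, was at 124, 105 and 0.435 CPM after mtDNA and 41.2, 35.3 and 0.155 CPM after Ox-mtDNA, and the last library held 3 counts.

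Itga4, the alpha 4 integrin chain used in homing to tissues (chromosome 2, 79085844 to 79163467, GRCm39), was well measured in all libraries. It was at 389, 357 and 263 CPM after mtDNA and at 136, 129 and 169 CPM after Ox-mtDNA in replicates 1, 2 and 3, with a log2 fold change of -1.21 (SE 0.22). The groups did not overlap, the replicate differences were -1.52, -1.47 and -0.63, and PBS libraries were at 319, 304 and 319 CPM, nearer to mtDNA. St8sia4, a polysialyltransferase, had differences of -0.94, -1.03 and -0.62 around levels of 482, 506 and 719.7 CPM after mtDNA. Apobec1, a cytidine deaminase, had differences of -1.15, -1.26 and -0.83, and its levels went from 21.2, 40.2 and 26.9 CPM with mtDNA to 9.52, 16.7 and 15.1 CPM with Ox-mtDNA. Neither gene had overlapping groups. Trim30c, a TRIM family gene, had lower levels, at 7.42, 10.4 and 4.46 CPM after mtDNA and 1.42, 2.43 and 2.32 CPM after Ox-mtDNA, again without overlap.

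Tlr7, which senses single-stranded RNA in endosomes and is a close relative of Tlr9 (chromosome X, 166087925 to 166113554, GRCm39), was at 201, 253 and 161 CPM after mtDNA and at 98.4, 112 and 103 CPM after Ox-mtDNA, with a log2 fold change of -0.96 (SE 0.23). Every Ox-mtDNA library was below every mtDNA library and every PBS library (213, 304 and 319.7 CPM). Icosl, the ligand of the T cell costimulator ICOS (chromosome 10, 77905136 to 77915359, GRCm39), was at 66.2, 73.7 and 61.7 CPM after mtDNA and 41, 26.5 and 30.3 CPM after Ox-mtDNA, with a log2 fold change of -1.05 (SE 0.23). Its mtDNA libraries were the high ones, above all 3 PBS libraries (45.9, 55.1 and 38.6 CPM), and Ox-mtDNA libraries were all below the mtDNA libraries. Cybb, the catalytic subunit of the phagocyte NADPH oxidase, was at 864, 1179 and 911 CPM with mtDNA and 493, 547 and 697 CPM with Ox-mtDNA, also without overlap. The same held for Sirpa, an inhibitory receptor for CD47 (156, 173 and 87.2 CPM with mtDNA and 72.7, 54.7 and 62.1 CPM with Ox-mtDNA), and for Cx3cr1, the fractalkine receptor (97.9, 66.8 and 43.3 CPM with mtDNA and 39.7, 29.9 and 29.3 CPM with Ox-mtDNA). Sirpa and Cx3cr1 are also on the list of cDC2 markers, of which 8 of 16 tested members had a negative fold change. Cd8a, a coreceptor chain carried by part of mouse pDCs and by cDC1 and T cells, was at 17.1, 16.8 and 9.84 CPM with mtDNA and 3.17, 4.65 and 6.86 CPM with Ox-mtDNA. Il4i1, an amino acid oxidase, had differences of -1.58, -1.1 and -0.81, but 87.4% of its exon bases are shared with the oppositely transcribed Tbc1d17, and the counting did not use strand.

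**Figure D2:**
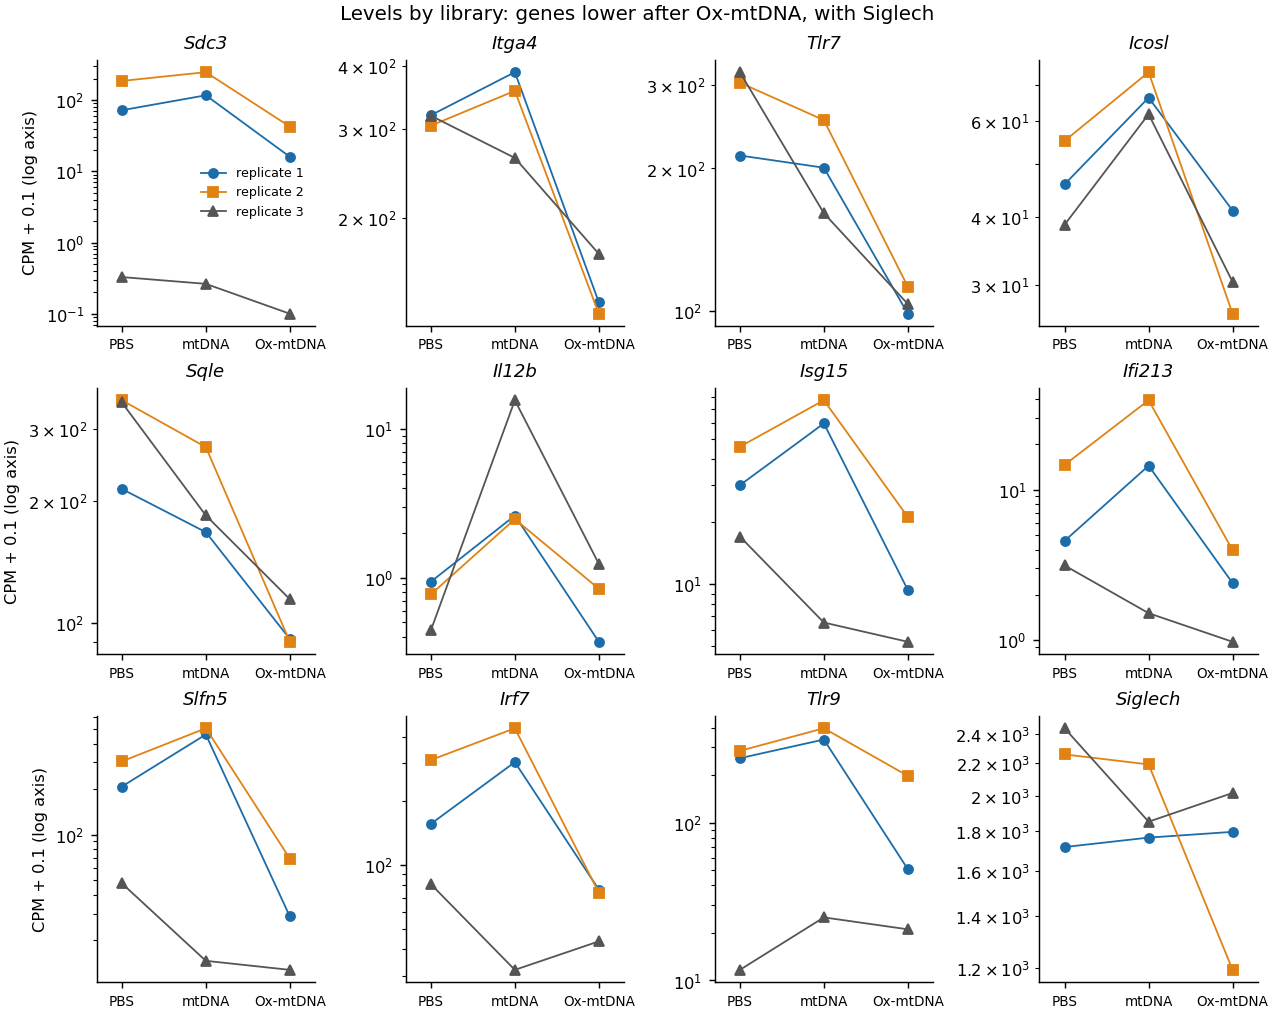
Levels of 12 genes in all 9 libraries (CPM plus 0.1 on a log axis, a separate scale for each gene), with a line joining the PBS, mtDNA and Ox-mtDNA libraries of the same replicate number. Itga4, Tlr7, Icosl, Sqle and Il12b have all 3 Ox-mtDNA libraries below all 3 mtDNA libraries, whereas Isg15, Slfn5 and Irf7 separate only in replicates 1 and 2 and Siglech is lowest in Ox-mtDNA replicate 2.

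Several of the genes higher after Ox-mtDNA in every replicate had low levels. Rpph1, the RNA of ribonuclease P (chromosome 14, 51044906 to 51045224, GRCm39), was at 1.6, 0.606 and 0.652 CPM after mtDNA and 5.87, 11.5 and 2.06 CPM after Ox-mtDNA, with a log2 fold change of 2.59 (SE 0.58) and no overlap between the groups. Smad7, an inhibitor of TGF-beta signalling, was at 72.1, 69.8 and 5.98 CPM with mtDNA and 309, 179 and 11.5 CPM with Ox-mtDNA, with differences of 2.1, 1.36 and 0.93. Plk3, a stress-responsive polo-like kinase, was at 5.66, 3.25 and 0.381 CPM with mtDNA and 28.4, 23.4 and 0.567 CPM with Ox-mtDNA, and its replicate 3 libraries held 7 and 11 counts. Gadd45g, a stress and growth arrest gene, was at 5.92, 8.32 and 28.8 CPM with mtDNA and 59.3, 89.3 and 56.3 CPM with Ox-mtDNA without overlap, and replicate 3 was the highest of its mtDNA libraries. Linker histone gene Hist1h1a was at 0.16, 0.331 and 4.73 CPM with mtDNA and 2.77, 1.0 and 16.3 CPM with Ox-mtDNA, highest in replicate 3 of both groups. Hist1h4n (0.48, 0.441 and 2.01 CPM with mtDNA and 6.01, 1.8 and 5.21 CPM with Ox-mtDNA) and Hist1h2ad (0.32, 0.331 and 0.544 CPM with mtDNA and 6.08, 1.8 and 1.65 CPM with Ox-mtDNA) are core histone genes of the same cluster and near-identical to other copies, so their counts are uncertain. A130071D04Rik, a gene of unnamed function, was at 0.694, 0.661 and 1.69 CPM with mtDNA and 7.36, 4.02 and 5.26 CPM with Ox-mtDNA without overlap.

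**Figure D3:**
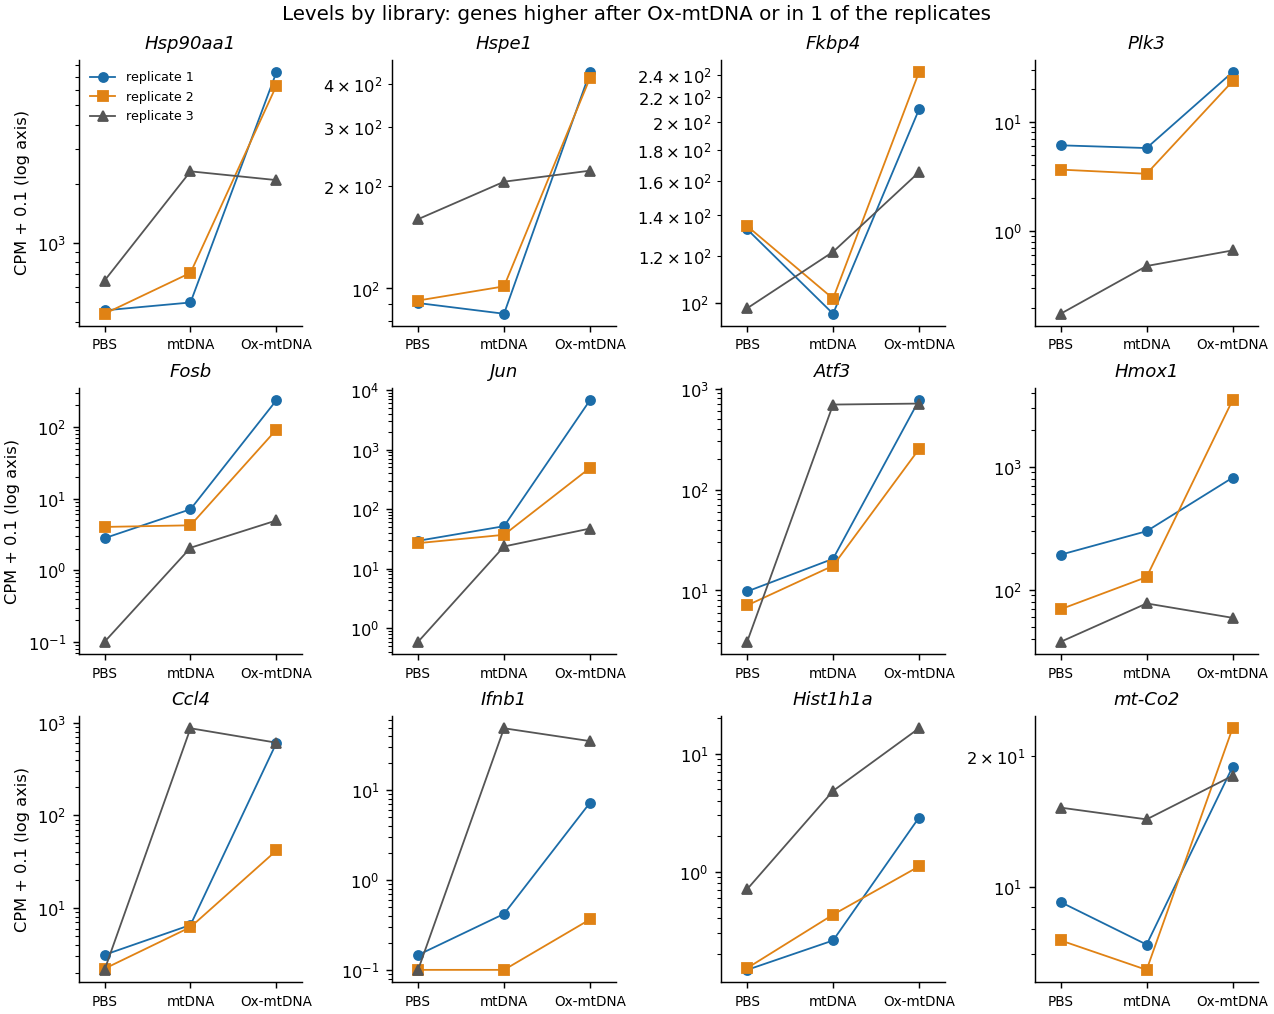
Levels of 12 genes in all 9 libraries, drawn as in the plot of genes lower after Ox-mtDNA. Hsp90aa1, Jun, Atf3 and Ccl4 differ widely between mtDNA and Ox-mtDNA in replicates 1 and 2, but in replicate 3 Hsp90aa1, Atf3 and Ccl4 stand at 2313, 694 and 869 CPM after mtDNA and at 2088, 710.3 and 607 CPM after Ox-mtDNA.

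Interferon genes were detected mainly in both treated libraries of replicate 3 and, at lower counts, in Ox-mtDNA replicate 1. Ifnb1, the first type I interferon to be made in most cells (chromosome 4, 88440262 to 88441011, GRCm39), was at 0.32, 0 and 48.9 CPM after mtDNA and at 7.16, 0.264 and 35.2 CPM after Ox-mtDNA in replicates 1, 2 and 3. The mtDNA libraries held 6, 0 and 900 counts of it, the Ox-mtDNA libraries 106, 5 and 682. The libraries of replicate 3 were thus far above the rest, and replicate 1 was higher after Ox-mtDNA. Of all 14 Ifna genes together the mtDNA libraries held 2, 1 and 74 counts, the Ox-mtDNA libraries 34, 2 and 74, and the PBS libraries 0, 0 and 5. Ifna genes are near-identical copies, and the counting left out reads that aligned to several places, so their levels are understated to an unknown degree. Of 20 type I and III interferon genes, only Ifnb1 and Ifna2 were tested, and neither passed (log2 fold changes of 1.6 (SE 1.11) and 1.55 (SE 1.39)). Single libraries set the Ifnb1 value, which was 0.022 without mtDNA replicate 1, 0.219 without Ox-mtDNA replicate 1, 4.714 without mtDNA replicate 3 and 4.015 without Ox-mtDNA replicate 3. It was -0.208 without the replicate block.

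Interferon-stimulated genes, the antiviral programme downstream of the interferon receptor, were lower after Ox-mtDNA than after mtDNA in replicates 1 and 2. Of the 72 tested members 71 had a negative fold change, and the list median was -1.48 (log2), against 0.04 over all genes. In edgeR with the block no member was called. DESeq2 with the block called 12 lower, against 57 lower of all 17555 genes. Without the low count filter edgeR called 17 lower, against 58 lower of all 37369 genes then tested. At the main settings 46 of 72 were lower at an unadjusted p under 0.05, against 3.37% of all genes. The median differences were -2.17, -1.76 and -0.01 in replicates 1, 2 and 3, and 2 of 72 members were positive in each of replicates 1 and 2 against 35 in replicate 3. Without replicate 3 the median was -1.99 and 54 of 72 were lower at an unadjusted p under 0.05, against 6.83% of all genes.

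The promoters of 3 of these genes are shown because they carry the sequence that interferon-activated transcription factors bind, the interferon-stimulated response element. Each is the 250 bases before the transcription start in the RefSeq table (build GRCm38.p6), written 5′ to 3′ on the gene's strand, and capitals mark matches on either strand to GAAA, any 2 bases and GAAA. The Isg15 stretch is chr4:156200819-156201068 (minus strand), that of Slfn5 is chr11:82951852-82952101 (plus strand) and that of Ifi213 is chr1:173599273-173599522 (minus strand).
Isg15: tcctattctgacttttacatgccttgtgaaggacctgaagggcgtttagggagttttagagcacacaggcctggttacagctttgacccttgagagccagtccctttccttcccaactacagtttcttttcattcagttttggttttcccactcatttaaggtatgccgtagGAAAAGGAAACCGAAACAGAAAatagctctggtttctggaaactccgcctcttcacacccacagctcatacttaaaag
Slfn5: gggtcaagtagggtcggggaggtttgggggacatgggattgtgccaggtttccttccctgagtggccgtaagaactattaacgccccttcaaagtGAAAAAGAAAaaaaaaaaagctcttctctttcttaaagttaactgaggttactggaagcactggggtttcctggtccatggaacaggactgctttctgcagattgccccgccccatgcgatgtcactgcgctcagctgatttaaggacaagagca
Ifi213: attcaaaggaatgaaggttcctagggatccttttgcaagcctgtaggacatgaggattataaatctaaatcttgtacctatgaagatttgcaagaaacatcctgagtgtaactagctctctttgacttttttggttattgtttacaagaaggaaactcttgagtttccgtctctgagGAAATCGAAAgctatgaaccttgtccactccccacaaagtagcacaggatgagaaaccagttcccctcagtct
The Isg15 match is a run of 3 overlapping copies from position -78, Slfn5 has 1 at -155 and Ifi213 has 1 at -73, counted back from the base before the start. Of the 72 tested members, 55 had a promoter in the table, and 29 of these (52.7%) held a match, against 3.46% of the 27025 genes with a promoter. A match describes these letters and is no measure of binding.

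Isg15, a ubiquitin-like modifier of the antiviral response (chromosome 4, 156283912 to 156285253, GRCm39), was at 59.6, 77.1 and 6.42 CPM after mtDNA and 9.25, 20.9 and 5.16 CPM after Ox-mtDNA in replicates 1, 2 and 3, with a log2 fold change of -1.77 (SE 0.48). PBS libraries were at 29.9, 45.9 and 16.9 CPM. In replicates 1 and 2 mtDNA was above and Ox-mtDNA below the PBS library of the same number, while in replicate 3 both treated libraries were below PBS. Slfn5, a Schlafen family protein, went from 459, 505 and 14.5 CPM with mtDNA to 28.6, 69.2 and 12.6 CPM with Ox-mtDNA (PBS 208, 305 and 47.5 CPM), and Ifi213, of the PYHIN family of DNA-binding proteins, from 14.3, 39.1 and 1.41 CPM with mtDNA to 2.3, 3.86 and 0.877 CPM with Ox-mtDNA. Both had the order of Isg15, with differences of -0.20 and -0.63 in replicate 3.

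Ifi47, an interferon-inducible GTPase, was 1 of the 3 members whose groups did not overlap (the background was 2.79%), at 190.1, 183 and 111 CPM with mtDNA and 54.8, 68.9 and 87.3 CPM with Ox-mtDNA; the others were Irgm1, a GTPase of the same family, and Ifi203, of the PYHIN family. Mx1, an antiviral GTPase, was at 199.9, 159.8 and 54.6 CPM with mtDNA and 47.5, 53 and 59 CPM with Ox-mtDNA. Irf7, the transcription factor through which pDCs make interferon, was at 303, 437 and 31.9 CPM with mtDNA and 76.2, 73.7 and 43.5 CPM with Ox-mtDNA. In both, Ox-mtDNA was the lower library in replicates 1 and 2 and the higher in replicate 3. Ifit1, which binds viral RNA, had differences of -2.53, -0.25 and 0.37, at 27.4, 19 and 15.6 CPM with mtDNA and 4.66, 16 and 20.2 CPM with Ox-mtDNA. Bst2 (tetherin, also a pDC marker), named after its values were seen, was at 774, 1027 and 1368 CPM with mtDNA and 1018, 617 and 1528 CPM with Ox-mtDNA, with differences of both signs.

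The replicate 3 difference near 0 came with a low level after mtDNA. The median level of the list was 6.12, 6.71 and 3.96 log2 CPM after mtDNA and 4.21, 4.71 and 3.92 log2 CPM after Ox-mtDNA in replicates 1, 2 and 3. It was 5.19, 5.60 and 4.46 log2 CPM in PBS. In replicates 1 and 2 the mtDNA library lay above PBS and the Ox-mtDNA library below it, and in replicate 3 both lay below. The median GC content of the list is 46.4%, under that of all tested genes (49.6%). With a GC correction, 47 members were lower at an unadjusted p under 0.05, against 3.45% of all genes. Replicate differences were not computed with that correction, and what part GC content had in replicate 3 was not tested.

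**Figure D4:**
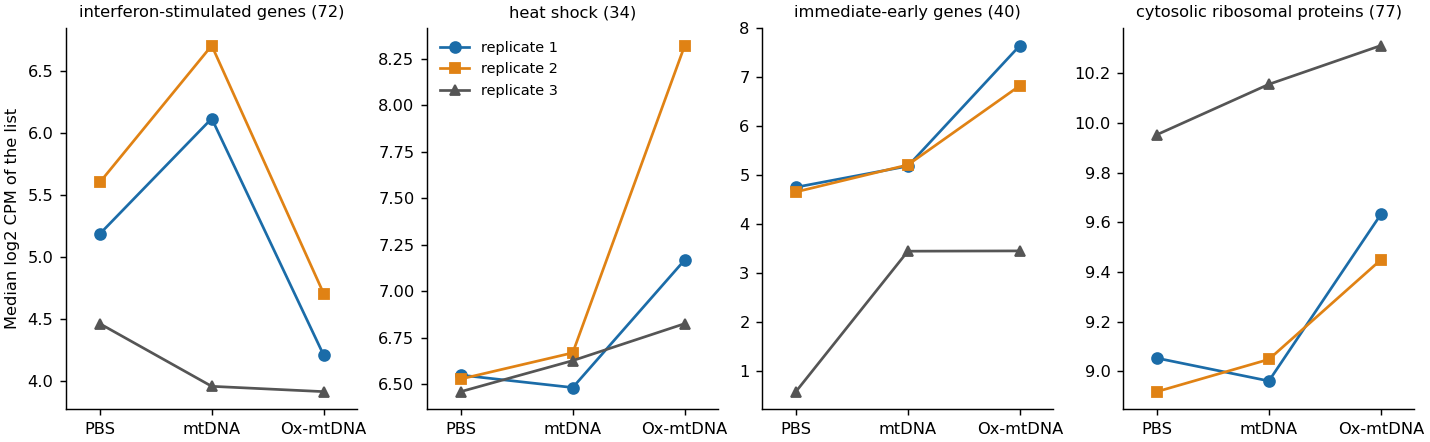
Median log2 CPM of 4 gene lists (tested members in brackets, a separate scale for each panel) in all 9 libraries, with a line joining libraries of the same replicate number. After Ox-mtDNA the interferon-stimulated genes are at 4.21, 4.71 and 3.92 against 6.12, 6.71 and 3.96 after mtDNA, and the immediate-early genes of replicate 3 are at 3.45 in both treated libraries and at 0.57 in PBS.

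Heat shock genes, which encode chaperones that hold and refold proteins, were higher after Ox-mtDNA in replicates 1 and 2. The fold change was positive for all 34 tested members (median 0.88, log2). In edgeR with the block no member was called. DESeq2 with the block called 4 higher, against 33 higher of all 17555 genes. Without the low count filter edgeR called 3 higher, against 32 higher of all 37369 genes then tested. At the main settings 20 of 34 were higher at an unadjusted p under 0.05, against 3.43% of all genes. The median differences were 0.95, 1.95 and -0.01 in replicates 1, 2 and 3. In 9 of the 34 the groups did not overlap, against 2.04% of all genes.

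Hsp90aa1, the inducible HSP90 of the cytosol (chromosome 12, 110657039 to 110662829, GRCm39), was at 499, 706 and 2313 CPM after mtDNA and 7374, 6307 and 2088 CPM after Ox-mtDNA, with PBS libraries at 455, 438 and 645 CPM and a log2 fold change of 2.43 (SE 0.70). The Ox-mtDNA libraries of replicates 1 and 2 were the highest, both replicate 3 libraries were in between, and the mtDNA library of replicate 3 was above its PBS library. Hspe1, the mitochondrial co-chaperonin HSP10, was at 84.1, 101 and 206 CPM with mtDNA and 434, 417 and 222 CPM with Ox-mtDNA, with differences of 2.36, 2.04 and 0.11 and no overlap. Fkbp4, an HSP90 co-chaperone, was at 96, 102 and 122 CPM with mtDNA and 210.0, 242 and 165 CPM with Ox-mtDNA, and its difference was positive in every replicate (1.13, 1.25 and 0.44). Hspa1l, an HSP70 gene, was at 6.89, 9.48 and 24.7 CPM with mtDNA and 27.5, 94.9 and 38.8 CPM with Ox-mtDNA, but shares 71.9% of its exon bases with the oppositely transcribed Gm10501. Another HSP70 gene, Hspa1a (235, 244 and 12.3 CPM with mtDNA and 10779, 5672 and 12.6 CPM with Ox-mtDNA) and Hspb1, a small heat shock protein (11.4, 19.3 and 21.1 CPM with mtDNA and 504, 344 and 12.5 CPM with Ox-mtDNA), were chosen after their values were seen. Both were far higher after Ox-mtDNA in replicates 1 and 2, while in replicate 3 the libraries were close for Hspa1a and the Ox-mtDNA library was the lower for Hspb1. Hspa1a is near-identical to Hspa1b, so its counts are uncertain.

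The promoter of Hspe1 is shown as a member with a match to the heat shock element, the sequence that heat shock factors bind. The stretch is chr1:55087898-55088147 (GRCm38.p6, RefSeq, plus strand), and capitals mark matches on either strand to 3 alternating units of GAA and TTC, each parted by any 2 bases.
Hspe1: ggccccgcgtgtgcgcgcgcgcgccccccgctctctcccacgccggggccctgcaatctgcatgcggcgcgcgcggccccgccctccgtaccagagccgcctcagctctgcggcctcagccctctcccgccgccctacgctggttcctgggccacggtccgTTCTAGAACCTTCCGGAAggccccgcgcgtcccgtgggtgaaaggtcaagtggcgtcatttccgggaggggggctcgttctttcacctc
The 2 matches overlap, the first at position -89. Of 34 tested members 28 had a promoter in the table, and 3 of these (10.7%) held a match, against 0.514% of all genes with a promoter. Hspe1 lies head to head with Hspd1, which encodes its partner chaperonin HSP60, and Hspd1 (named after its values were seen) was at 149.9, 178 and 198 CPM with mtDNA and 549, 1427 and 182 CPM with Ox-mtDNA. Hspe1 and Hspd1 were both higher after Ox-mtDNA in replicates 1 and 2.

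Immediate-early genes, which cells transcribe within minutes of a stimulus without making new protein, were also higher in replicates 1 and 2. The fold change was positive for 37 of 40 tested members (median 1.13, log2). No member was called by edgeR or by DESeq2 with the block, and 12 were higher at an unadjusted p under 0.05, against 3.43% of all genes. These were 26 of 40 without replicate 3, against 6.92% of all genes, and 6 without the replicate block, against 0.923%. Median differences were 1.46, 1.81 and 0.06. The groups did not overlap for 5 members, against 2.04% of all genes, and these are named after their values were seen: the phosphatase Dusp1, the phosphatase subunit Ppp1r15a, and Egr2, Nr4a1 and Nr4a2, all transcription factors. Fosb, an AP-1 subunit (chromosome 7, 19036621 to 19043976, GRCm39), was at 6.99, 4.13 and 1.96 CPM after mtDNA and 236, 91.8 and 4.85 CPM after Ox-mtDNA, higher in every replicate but with low levels in both replicate 3 libraries, and had a log2 fold change of 3.67 (SE 0.95). Rhob, a small GTPase, was at 18.4, 20.2 and 2.07 CPM with mtDNA and 462, 90.5 and 2.84 CPM with Ox-mtDNA, and Klf4, a zinc finger transcription factor, at 28.9, 25 and 1.14 CPM with mtDNA and 125, 36.6 and 1.86 CPM with Ox-mtDNA. Atf3, a stress-induced repressor, was at 20.5, 17.5 and 694 CPM with mtDNA and 767, 251 and 710.3 CPM with Ox-mtDNA. For Atf3 the mtDNA library of replicate 3 was within the range of the Ox-mtDNA libraries, against 9.68, 7.01 and 3.0 CPM in PBS. Egr1, induced by growth factors and MAP kinases, was at 24, 18.4 and 14.6 CPM with mtDNA and 195, 222 and 9.6 CPM with Ox-mtDNA, lower after Ox-mtDNA in replicate 3. Jun, the partner of Fos in AP-1, chosen after its values were seen, was at 51.6, 37 and 23.5 CPM with mtDNA and 6725, 492 and 47.1 CPM with Ox-mtDNA. A CArG box, the binding sequence of serum response factor, was found in 4 of the 30 members with a promoter (13.3%) and in 1.62% of all genes with one. The cAMP response element TGACGTCA was also in 4 (13.3%), against 1.77% of all.

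Ribosomal protein genes were slightly higher after Ox-mtDNA in every replicate. The fold change was positive for all 77 tested members but small (median 0.43, log2), and 74 were higher in all 3 replicates, against 15.1% of all genes. Median differences were 0.67, 0.47 and 0.16. At an unadjusted p under 0.05, 61 were higher, against 3.43% of all genes. This count was 0 without the replicate block, against 0.923% of all genes, and 3 without the low count filter, against 2.64%. With DESeq2 and the block it was 39, against 4.01%. With a GC correction it was 42, against 3.41%, and without replicate 3 it was 63, against 6.92%. It thus depended on the settings, and the cause was not tested. Levels differed more between replicate 3 and the rest (median 10.16 and 10.31 log2 CPM in mtDNA and Ox-mtDNA replicate 3, against 8.96 to 9.63 in the other 4 libraries) than between treatments, and in no member were the groups apart. Rps3, a small subunit protein, was at 1023, 1024 and 2283 CPM after mtDNA and 1749, 1457 and 2595 CPM after Ox-mtDNA. Rps12, of the same subunit, was at 576, 575 and 1299 CPM with mtDNA and 924, 894 and 1488 CPM with Ox-mtDNA. Ribosomal protein genes have many processed copies in the genome, so their counts are uncertain where reads aligned to several places.

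Genes encoded in mitochondrial DNA were higher after Ox-mtDNA in replicates 1 and 2 as well. The fold change was positive for all 15 (median 0.87, log2), with median differences of 1.20, 1.29 and -0.06. At an unadjusted p under 0.05, 11 were higher, against 3.43% of all genes, and 5 without the replicate block, against 0.923%. All genes of the mitochondrial chromosome, listed or not, made up 1.64%, 1.46% and 2.78% of counts after mtDNA and 2.90%, 3.05% and 2.68% after Ox-mtDNA, against 1.69%, 1.52% and 3.18% in PBS. The mtDNA libraries of replicates 1 and 2 were thus near their PBS libraries, and all replicate 3 libraries were near the Ox-mtDNA level. mt-Co2, a cytochrome oxidase subunit, was at 7.26, 6.34 and 14.2 CPM with mtDNA and 18.8, 23.1 and 17.9 CPM with Ox-mtDNA, with a log2 fold change of 1.22 (SE 0.34). mt-Atp6, an ATP synthase subunit, was at 7.9, 5.95 and 16.1 CPM with mtDNA and 23.5, 27.2 and 19 CPM with Ox-mtDNA. Neither had overlapping groups. The list median was 8.62 to 10.4 log2 CPM in the 6 libraries, far above the levels of mt-Co2 and mt-Atp6. The counting left out fragments that aligned more than once, so their levels are uncertain, and the effect on them was not tested. Of the 76 tested nuclear genes of oxidative phosphorylation, 53 were positive, against 9393 of 17555 over all genes. Their median was 0.12, replicate medians were 0.22, -0.16 and 0.22, and none reached an unadjusted p under 0.05. Atp5f1b, the beta subunit of ATP synthase, was at 598, 583 and 1229.6 CPM with mtDNA and 888, 787 and 1371 CPM with Ox-mtDNA. Of 32 constitutive proteasome genes, 29 were positive (median 0.22) and none reached an unadjusted p under 0.05.

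Glycolysis and hypoxia genes were positive in 28 of 33, with a median of 0.37 and replicate medians of 0.365, 0.70 and 0.04. In all 3 replicates 12 were higher, against 15.1% of all genes. At an unadjusted p under 0.05, 5 were higher, against 3.43% of all genes. These were 0 without the replicate block and 10 without replicate 3, against 0.923% and 6.92% of all genes. Tpi1, triose phosphate isomerase, was at 46, 37.1 and 118 CPM after mtDNA and 102, 84.6 and 147 CPM after Ox-mtDNA, higher in each replicate. Vegfa, the vascular growth factor, was at 37.1, 22.3 and 2.07 CPM with mtDNA and 76.6, 100.3 and 3.35 CPM with Ox-mtDNA, also higher in each replicate.

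Inflammatory cytokines and chemokines did not move together. Of 27 tested members 10 were positive and 17 negative, with a median of -0.19. At an unadjusted p under 0.05, 4 were lower and none higher, against 3.37% and 3.43% of all genes. Without replicate 3 the median was 0.03, with 5 higher and 4 lower at that p, against 6.92% and 6.83% of all genes. Il12b, the p40 chain of interleukins 12 and 23 (chromosome 11, 44290890 to 44304860, GRCm39), was lower after Ox-mtDNA in every replicate, at 2.51, 2.37 and 15.4 CPM after mtDNA and 0.27, 0.741 and 1.14 CPM after Ox-mtDNA (47, 43 and 284 counts against 4, 14 and 22). PBS libraries were at 0.837, 0.67 and 0.342 CPM, so the mtDNA libraries were the high ones, replicate 3 most of all. The groups did not overlap and the log2 fold change was -2.94 (SE 0.79). Cxcl9, a T cell attractant, was low throughout, at 0.961, 0.716 and 0.381 CPM with mtDNA and 0, 0.0529 and 0.155 CPM with Ox-mtDNA. Cxcl10, its interferon-inducible relative, was at 66.9, 22.3 and 69.6 CPM with mtDNA and 19, 25 and 37.1 CPM with Ox-mtDNA, with differences of both signs. Tnf was at 21.2, 12 and 85.9 CPM with mtDNA and 34.6, 34 and 35.6 CPM with Ox-mtDNA, Il6 at 0.854, 0.496 and 6.04 CPM with mtDNA and 0.405, 0.476 and 4.23 CPM with Ox-mtDNA and Il1b at 18.1, 4.96 and 423 CPM with mtDNA and 50.8, 4.6 and 216 CPM with Ox-mtDNA. All 3 were highest after mtDNA in replicate 3. Ccl4, a macrophage attractant made early by activated pDCs and chosen here after its values were seen, was at 6.46, 6.12 and 869 CPM with mtDNA and 604, 41.6 and 607 CPM with Ox-mtDNA (PBS 3.02, 2.11 and 2.05 CPM). It was low after mtDNA in replicates 1 and 2 and highest in Ox-mtDNA replicate 1 and both treated libraries of replicate 3.

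Costimulation and maturation genes, with which dendritic cells engage T cells, differed in direction between replicates. Of 26 tested members 19 were negative (median -0.49), and replicate medians were -1.32, 0.48 and -0.71. At an unadjusted p under 0.05, 5 were lower, against 3.37% of all genes. Cd40, the receptor for T cell help, was at 58.7, 61.6 and 9.03 CPM after mtDNA and 3.44, 39.6 and 3.35 CPM after Ox-mtDNA. Cd86 was at 34.5, 46.9 and 26 CPM with mtDNA and 8.1, 37.4 and 21.2 CPM with Ox-mtDNA and Cd80 at 9.13, 12.5 and 12.6 CPM with mtDNA and 1.76, 17.9 and 6.09 CPM with Ox-mtDNA; both encode ligands of CD28. Of the 6 libraries, Cd86 and Cd80 were lowest in Ox-mtDNA replicate 1 and Cd40 in Ox-mtDNA replicates 3 and 1, while Cd80 was higher after Ox-mtDNA in replicate 2. Tnfsf10, the death ligand TRAIL, was lower in every replicate without overlap, at 13.7, 15.2 and 3.43 CPM with mtDNA and 2.57, 2.54 and 2.27 CPM with Ox-mtDNA. The 32 tested NF-kB targets had the same order of replicate medians (-0.94, 0.44 and -0.58). At an unadjusted p under 0.05, 3 were lower and 0 higher, against 3.37% and 3.43% of all genes. Without replicate 3 these were 1 lower and 4 higher, against 6.83% and 6.92% of all genes.

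Antigen presentation genes had mostly negative fold changes. Of 23 MHC class I and immunoproteasome genes 17 were negative (median -0.40). Their replicate medians were -0.25, -1.03 and 0.10, and 16 were positive in replicate 3. At an unadjusted p under 0.05, 5 were lower, against 3.37% of all genes. Nlrc5, the transactivator of MHC class I genes, was at 214, 314 and 14.1 CPM with mtDNA and 72.8, 84.6 and 15.9 CPM with Ox-mtDNA. Of 15 MHC class II genes 13 were negative (median -0.18, replicate medians -0.05, -0.61 and -0.09). Of these 15, 3 were lower at that p, against the same 3.37%. Ciita, the class II transactivator, was at 195, 255 and 14.5 CPM with mtDNA and 104, 95.3 and 10.6 CPM with Ox-mtDNA, and H2-Ab1, a class II beta chain, at 993, 1315 and 655 CPM with mtDNA and 697, 858 and 569 CPM with Ox-mtDNA. Ciita and H2-Ab1 were lower after Ox-mtDNA in each replicate, and their groups overlapped through replicate 3.

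Sensors of DNA did not share a direction. The 32 tested genes of the endosomal Toll-like receptor machinery had a median of -0.02. At an unadjusted p under 0.05, 2 of them, Tlr7 and Irf7, were lower, against 3.37% of all genes. Tlr9 (chromosome 9, 106099797 to 106104082, GRCm39) was at 336, 396 and 25 CPM after mtDNA and 50.6, 198 and 21 CPM after Ox-mtDNA, with PBS at 256, 285 and 11.6 CPM. It was lower after Ox-mtDNA in every replicate, with log2 differences of -2.73, -1.0 and -0.25, but all replicate 3 levels were under those of replicates 1 and 2. Cgas was at 27.3, 25.2 and 27.6 CPM with mtDNA and 36.5, 16.1 and 30.2 CPM with Ox-mtDNA, and Sting1 at 155, 164 and 149 CPM with mtDNA and 185, 84.3 and 183 CPM with Ox-mtDNA. Both had differences of either sign. Of 23 genes of cytosolic DNA sensing 15 were negative (median -0.16). Their replicate medians were -0.13, -0.54 and 0.15, and 16 were positive in replicate 3. At an unadjusted p under 0.05, 4 were lower, against the same 3.37%. Zbp1, a sensor of left-handed nucleic acids and itself interferon-inducible, was at 17.3, 47.4 and 2.61 CPM with mtDNA and 2.16, 8.25 and 2.79 CPM with Ox-mtDNA.

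Trex1, the exonuclease that degrades cytosolic DNA (chromosome 9, 108887001 to 108888802, GRCm39), was at 149, 144 and 84.8 CPM after mtDNA and 71.4, 74.5 and 56.6 CPM after Ox-mtDNA. The groups did not overlap, and the log2 fold change was -0.88 (SE 0.25). PBS libraries were at 135, 156 and 173 CPM, all above the Ox-mtDNA libraries. The 16 tested nucleases that degrade DNA had a median of 0.08. At an unadjusted p under 0.05, 1 (Trex1) was lower, against 3.37% of all genes. Repair genes for oxidized guanine had the same median, 0.08 over 21 genes. Ogg1, the glycosylase that removes oxidized guanine, was at 10.2, 10.5 and 6.52 CPM with mtDNA and 8.37, 6.24 and 7.12 CPM with Ox-mtDNA, with differences of -0.28, -0.74 and 0.12. Lig3, the ligase that seals repaired mitochondrial DNA, was at 67.5, 58.6 and 63 CPM with mtDNA and 45.1, 46.9 and 48 CPM with Ox-mtDNA, lower in each replicate without overlap. Inflammasome genes had a median of -0.16 over 18 genes (replicate medians -0.16, -0.20 and 0.003). At an unadjusted p under 0.05, 1 was lower, against 3.37% of all genes. It was the cytokine Il18 (1.87, 5.01 and 1.9 CPM with mtDNA and 0.81, 1.59 and 1.5 CPM with Ox-mtDNA, no overlap). The sensor Nlrp3 was at 32.5, 22.3 and 30.4 CPM with mtDNA and 55.4, 27.6 and 37.7 CPM with Ox-mtDNA.

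Target genes of NRF2, the transcription factor that answers oxidative stress, went in opposite directions in replicates 1 and 2. Over 32 tested members the fold change median was 0.26, with 28 positive and none at an unadjusted p under 0.05, but the replicate medians were -0.88, 1.5 and 0.09. Only 7 members were positive in replicate 1, against 29 in replicate 2. Hmox1, heme oxygenase 1 (chromosome 8, 75820249 to 75827217, GRCm39), was an exception, at 299, 127 and 77.2 CPM after mtDNA and 814, 3478 and 58.9 CPM after Ox-mtDNA, higher in both of these replicates. Srxn1, which reactivates peroxiredoxins, was at 158, 71.9 and 1.79 CPM with mtDNA and 3.92, 1410.1 and 1.96 CPM with Ox-mtDNA. Gclm, a subunit of the enzyme that starts glutathione synthesis, was at 209, 129.8 and 7.67 CPM with mtDNA and 28.8, 701 and 8.56 CPM with Ox-mtDNA, and Slc7a11, the cystine importer, at 28.7, 13.8 and 1.03 CPM with mtDNA and 1.15, 252 and 1.96 CPM with Ox-mtDNA. Srxn1, Gclm and Slc7a11 were chosen after their values were seen. For all 3, Ox-mtDNA was lower than mtDNA in replicate 1 and higher in replicate 2, and replicate 3 was low in both groups. Summed over the list, levels were 13206 and 8449.6 CPM after mtDNA and Ox-mtDNA in replicate 1, 13624 and 36558 CPM in replicate 2, and 8866 and 8879 CPM in replicate 3.

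**Figure D5:**
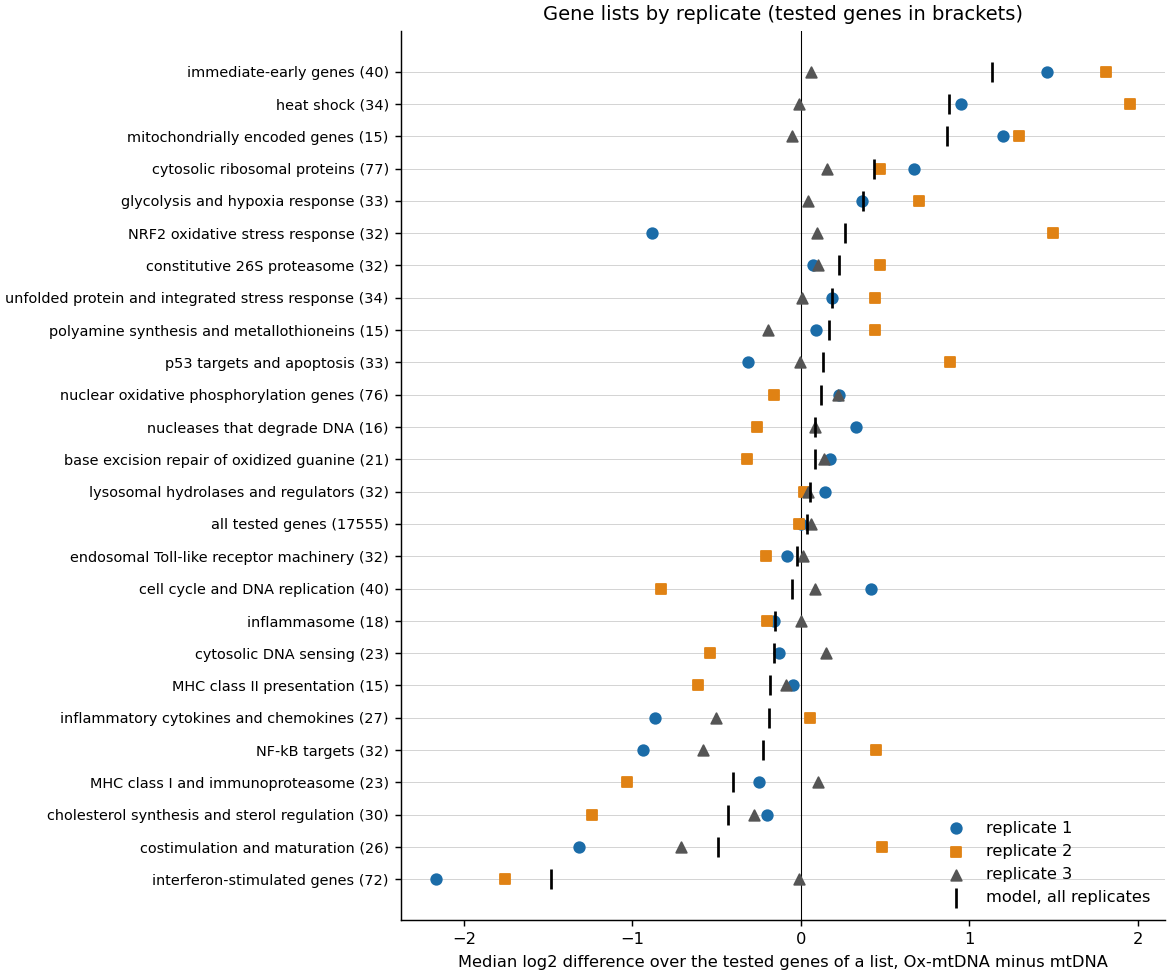
Median log2 difference (Ox-mtDNA minus mtDNA) over the tested members of each pathway list with 10 or more (numbers in brackets), as blue circles, orange squares and grey triangles for replicates 1, 2 and 3, with a black bar for the median fold change of the model. Interferon-stimulated genes are at -2.17 and -1.76, immediate-early genes at 1.46 and 1.81, mitochondrially encoded genes at 1.20 and 1.29 and heat shock genes at 0.95 and 1.95 in replicates 1 and 2, NRF2 targets are at -0.88 and 1.5 in those replicates, and replicate 3 lies near 0 for most lists.

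Genes of cholesterol synthesis and its control were mostly lower. Of 30 tested members 24 were negative (median -0.43, replicate medians -0.20, -1.24 and -0.28). At an unadjusted p under 0.05, 4 were lower, against 3.37% of all genes. In all 3 replicates 11 were lower, against 12.7% of all genes. Sqle, squalene epoxidase (chromosome 15, 59186930 to 59203041, GRCm39), was at 167, 271 and 184 CPM after mtDNA and 91.4, 90 and 115 CPM after Ox-mtDNA, with no overlap and a log2 fold change of -1.05 (SE 0.24). PBS libraries were at 214, 353 and 349 CPM, higher than the treated library of the same number in every case. Stard4, a sterol carrier, was at 65.3, 88.9 and 109.9 CPM with mtDNA and 39.8, 27.9 and 78.3 CPM with Ox-mtDNA, and Hsd17b7, a sterol reductase, at 57.2, 106 and 112 CPM with mtDNA and 23.6, 27.2 and 90.3 CPM with Ox-mtDNA. Both were lower after Ox-mtDNA in each replicate.

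Genes of the unfolded protein and integrated stress response had a median of 0.19 over 34 tested members. At an unadjusted p under 0.05, 4 were higher and 1 lower, against 3.43% and 3.37% of all genes. Dnajb9, a chaperone of the endoplasmic reticulum, was at 40.5, 44.9 and 55.6 CPM with mtDNA and 88.1, 147 and 54 CPM with Ox-mtDNA, higher in replicates 1 and 2. Herpud1, which helps to degrade misfolded proteins, was lower in each replicate, at 355, 494 and 499 CPM with mtDNA and 245, 400.0 and 288 CPM with Ox-mtDNA. Targets of p53 had a median of 0.13 over 33 members, with replicate medians of -0.31, 0.88 and -0.01. Of these, 2 were higher and 1 lower at that p, against the same 3.43% and 3.37%. Sesn1, a stress-inducible p53 target, was lower in each replicate, at 58.8, 59.1 and 87.9 CPM with mtDNA and 31.5, 43.5 and 73.9 CPM with Ox-mtDNA. The lists of lysosomal genes (median 0.05 over 32) and of polyamine and metallothionein genes (median 0.17 over 15) had 19 and 9 positive members. Both shares are near that of all genes, 9393 of 17555.

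pDC identity genes differed mainly in replicate 2. The 34 tested members had a median of -0.20, with replicate medians of 0.35, -1.0 and 0.05, and 3 were positive in replicate 2 against 21 in replicate 1. At an unadjusted p under 0.05, 4 were lower (Cybb, Irf7, Tlr7 and the kallikrein Klk1), against 3.37% of all genes. The groups did not overlap for 5 (Cybb, Klk1, Tcf4, Tlr7 and Zeb2), all lower, against 2.79% of all genes; Klk1 and Zeb2 are named after their values were seen. Their summed level was 14324, 17739 and 12351 CPM after mtDNA and 16996, 8178 and 12532 CPM after Ox-mtDNA. Ox-mtDNA replicate 2 was the lowest of these 6. Runx2 and Tcf4, transcription factors of pDCs named after their values were seen, were both lowest of the 6 in the same library. Runx2 was at 956, 1077 and 451 CPM with mtDNA and 1541, 242 and 473 CPM with Ox-mtDNA, and Tcf4 at 585, 730.4 and 601 CPM with mtDNA and 511, 196 and 524 CPM with Ox-mtDNA. B cell markers were higher there, with a median difference of 1.32 in replicate 2 against 0.19 and -0.31 in replicates 1 and 3; Cd79a, part of the B cell receptor, was at 41.8, 33.4 and 48.6 CPM with mtDNA and 63.6, 182 and 35.6 CPM with Ox-mtDNA. Cell cycle genes also differed by replicate (median differences 0.41, -0.83 and 0.08 over 40 genes), with 36 positive in replicate 1 and 1 in replicate 2, and none reached an unadjusted p under 0.05. Whether these differences share a source was not tested.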

How the data were processed

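Polyadenylated RNA of sorted mouse pDCs was sequenced in 9 libraries, 3 each for PBS, mtDNA and Ox-mtDNA, with groups and replicate numbers from the labels. The labels do not say whether replicates came from separate animals or cultures, so p-values measure only the spread between these libraries. By Xist and Y chromosome levels, replicate 3 differs in sex from replicates 1 and 2 and so came from other animals. The values are raw counts per gene as the authors deposited them, made with featureCounts 2.0.1 on STAR 2.7.11b alignments to GRCm39 after fastp 0.23.4, per the submitters' processing notes. Per the file headers, counting ran over exons of GENCODE M34 with overlapping genes both credited, without strand and without fragments that aligned more than once.

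Genes were tested in R 4.3.3 with edgeR 4.0.16 (robust quasi-likelihood F-test, two-sided) on all 9 libraries with terms for group and replicate number, TMM factors and filterByExpr with a minimum count of 10. The Benjamini-Hochberg adjustment ran over 17555 genes, and the threshold was an adjusted p of 0.05. The script was tested on simulated data. The replicate numbers of the labels were taken to pair the libraries. Libraries of the same number deviated together (correlations of deviations from group means 0.487 to 0.897 in 9 pairs). Libraries of unlike number were not compared, and replicate 3 stood apart from the rest. These correlations therefore cannot show that replicates 1 and 2 are rightly paired. Replicate differences are in log2 CPM with a prior count of 2. The floor of 3 counts, which covers counting error only, corresponded to 0.154 to 0.202 CPM in the 6 libraries. Gene symbols, GC content and coordinates came from the reference tables (51884 of 57126 genes matched a symbol; 1043 of 1045 entries of 36 gene lists matched). Alternatives used limma 3.58.1 and DESeq2 1.42.0.

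The comparison, the lists and the rule for named genes were chosen with earlier results of these data known. The rule named, since fewer than 5 genes passed, the 12 higher and 12 lower genes of smallest p with 1 sign in all replicates; at a mean of 1 CPM or more, the 10 higher and 10 lower genes with the largest smallest replicate difference; up to 3 members of each list by p; and 25 fixed immune, stress and DNA sensing genes.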

Additional observations from a re-analysis of the deposited data

How the results depend on the processing

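The count of called genes, 0 with edgeR and the replicate block (1195 at an unadjusted p under 0.05), depended on the tool and the filter. It was 90 with a DESeq2 Wald test and the block (33 higher, 57 lower), 90 in edgeR without the low count filter (32 higher, 58 lower), 1 with limma-voom and the block (Sdc3), and 1 with DESeq2 and no block (Itga4, an alternative chosen after seeing the data); the cause was not tested. The lists of 90 shared 48 genes, and they held 12 and 17 interferon-stimulated genes, all lower, and 4 and 3 heat shock genes, all higher. Without the replicate block edgeR called 0, with 422 genes at an unadjusted p under 0.05, and 0 were called under every other setting, including each replicate or library left out. Leaving out replicates 1, 2 and 3 gave 336, 641 and 2358 genes at an unadjusted p under 0.05, and the smallest adjusted p in edgeR was 0.115 without replicate 3 and 0.0569 without mtDNA replicate 3. Without the replicate block the members at an unadjusted p under 0.05 went from 3 to 0 for MHC class II, 5 to 1 for MHC class I, 4 to 1 for cholesterol synthesis and 5 to 2 for costimulation, all lower. Without replicate 3 they were 3, 7, 7 and 5 lower, with 2 costimulation genes higher. Over all genes, 1.48% were lower at that p without the block and 6.83% without replicate 3. Of the values of named genes under alternatives, 2987 kept direction and side of the threshold, 73 passed it and 40 reversed; of list medians, 733 moved by less than the replicate spread and 21 by more. The reversed log2 fold changes were these. Ifnb1 was at -0.208 and Tnf at -0.192 without the block, at -0.229 and -0.235 over 6 libraries without it, and at -0.241 and -0.239 with DESeq2 and no block. Il1b was at 0.129 and Cgas at -0.022 over 6 libraries with the block, at 0.081 and -0.017 with limma-voom, and Cgas at -0.018 without the filter. Il1b was at 1.271 over replicates 1 and 2 only. Leaving out replicates or single libraries gave ranges of 0.022 to 4.714 for Ifnb1, -0.587 to 1.394 for Tnf, -0.925 to 1.174 for Il1b, -0.168 to 6.9 for Ifna2, -1.229 to 0.08 for Ifit1, -0.434 to 0.364 for Cgas, -0.458 to 0.264 for Sting1, -0.428 to 0.064 for Siglech, -0.03 to 0.995 for Nfe2l2, -0.172 to 1.473 for Il2rb and -0.448 to 0.213 for Car2. Few counts limit Sdc3, Slc25a22 and Plk3 in replicate 3, whose mtDNA and Ox-mtDNA total counts were within the range of the other 4 libraries, and the Ifna genes in replicates 1 and 2.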

Other observations

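Histone genes of the replication-dependent clusters were examined as a group after Hist1h1a, Hist1h4n and Hist1h2ad were named. Their messages normally lack a poly(A) tail, and the libraries were made from polyadenylated RNA. Of 59 tested genes 55 had a positive fold change (median 1.30, log2), 42 were higher after Ox-mtDNA in all 3 replicates (15.1% of all genes) and 0 lower, and 20 were higher at an unadjusted p under 0.05 (3.43% of all genes). The set was formed after 3 of its members had been picked for their differences, so these counts are a description only. Median differences were 2.23, 0.79 and 0.78 in replicates 1, 2 and 3. Summed levels were 271, 241 and 2838 CPM after mtDNA, 1009, 265 and 3516 CPM after Ox-mtDNA, and 226, 199 and 248.9 CPM in PBS, so both treated libraries of replicate 3 were the highest and Ox-mtDNA replicate 1 came next. Histone genes are near-identical copies, so single genes are uncertain. Cell cycle genes had median differences of 0.41, -0.83 and 0.08 in the same replicates.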
